A study of Homo sapiens with 4 samples.

Results

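The Wnt ligands, their receptors, their secreted inhibitors and the core of the pathway inside the cell were examined in bulk RNAseq of MV3 melanoma spheroids. The genes were taken by symbol. They comprised every WNT, FZD, DKK and SFRP gene of the count table together with 15 named co-receptors, regulators and TCF/LEF factors, which gave 52 genes of the 56304 in the table. By role they were 19 ligands, 10 Frizzled receptors, 4 co-receptors, 4 regulators of receptor turnover, 8 secreted inhibitors, 3 scaffold and feedback genes and 4 TCF/LEF factors. MV3 is an established human melanoma line, and the cells carried the H2B-GFP nuclear reporter in both groups. Spheroids of 50000 cells, 1 mm across, invaded collagen I until day 2 without treatment. A 1 mm punch then removed the core, and a 3 mm punch removed the collagen around it with the cells that had left the spheroid, the invasion zone. There were 2 libraries of each zone, numbered 1 and 2. Because the cut was vertical, invading cells above and below the spheroid could remain in the core sample.

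Wnt proteins are secreted, lipid-modified ligands that bind Frizzled receptors. With the co-receptors LRP5 or LRP6 they stabilize β-catenin, which then acts with TCF/LEF factors in the nucleus. WNT5A and WNT5B usually signal without β-catenin, through Frizzled receptors with ROR1, ROR2, RYK or PTK7, and WNT5A is known in melanoma for its link to motility and the dedifferentiated state. DKK proteins block LRP5 and LRP6, SFRP proteins bind the ligands, and AXIN2 and NKD1 are feedback genes that β-catenin signaling itself induces.

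The libraries held 36363358 and 14983135 counts in the core and 37591782 and 11789243 in the invasion zone, so both replicate 2 libraries were the shallower ones. A count of 0 allows up to 3 counts, or 0.0798 to 0.254 CPM (counts per 1000000 counts in the library) depending on the library, which covers counting error only. Of the melanocyte lineage markers, MITF was the sole marker over 1 CPM in all 4 libraries, and SOX10 and TYR had no count. Of 5 markers of dedifferentiated melanoma, AXL, EGFR, SOX9 and NT5E were over 1 CPM in all 4 libraries, while NGFR was at 0.0667 CPM or lower. AXL, EGFR and NT5E were higher in both invasion zone libraries (AXL 623 and 633 CPM in the core and 1220 and 1130 CPM in the invasion zone). The margin of EGFR was narrow (194 CPM in core replicate 2 against 195 CPM in invasion zone replicate 1). SOX9 overlapped between the zones, and NGFR, near the floor, was lower in both invasion zone libraries. Of the fibroblast, endothelial, leukocyte and keratinocyte markers, DCN, LUM, CD3E and KRT1 were at 0. The highest were PDGFRA (13.7 to 93.7 CPM) and PECAM1 (0.933 to 17.8 CPM), which were lower in both invasion zone libraries than in both core libraries. Proliferation and hypoxia markers also moved with the zone. All 14 S phase and G2/M markers were higher in both invasion zone libraries, where they summed to 2582 and 3053 CPM against 934 and 1658 CPM in the core. Of 10 hypoxia markers 8 were lower in both, where the list summed to 581 and 477 CPM against 1401 and 1373 CPM. The part of these differences in the results that follow was not tested. In bulk RNA, fewer cells of a type and less RNA per cell cannot be told apart.

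The zones were compared by the quasi-likelihood test of edgeR over 15529 genes, with Benjamini-Hochberg adjustment over all of them. Calls needed an adjusted p below 0.05 together with a change of at least 2-fold. Without a replicate term 0 of the 15529 genes were called in either direction (percent called 0), and no adjusted p was below 0.128. When the p was left unadjusted, 454 genes passed as higher (2.92%) and 909 as lower in the invasion zone (5.85%). DESeq2, the tool of the study, was run anew at the adjusted p and fold limits above. The study names a p-value below 0.05 without saying that it was adjusted. In the new run DESeq2 called 354 higher (2.76%) and 548 lower (4.27%) without a replicate term, together 7.04% of the genes to which it gave an adjusted p. With the replicate term it called 427 higher and 731 lower (5.84%), together 9.25%. Blocking on the replicate number in edgeR gave calls, and 530 genes were higher (3.41%) and 1097 lower (7.06%), together 10.5% of the genes tested. The block pairs the core and invasion zone of a replicate, and its value is given beside each result it changed. Nothing in the labels says that the replicates were separate cultures, so the spread behind the p-values may be technical. The block leaves few degrees of freedom for each gene. Its p-values therefore rest mostly on variance borrowed across genes and measure little of the spread of the gene itself.

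Of the 52 genes, 32 passed the filter on low counts, and FZD3 did so through the core libraries alone. None was called without the replicate term, where their adjusted p ranged from 0.128 to 0.937. At an unadjusted p, 2 were at least 2-fold higher and 2 at least 2-fold lower, and DESeq2 called 2 higher and 1 lower. With the replicate block 4 of the 32 were called, DKK1 and WNT5B higher and WNT5A and FZD1 lower in the invasion zone. These 4 are 12.5% of the 32, near the 10.5% of all genes tested. Without a fold minimum 13 passed the blocked test, 5 higher and 8 lower, which is 40.6% against 38.8% of all genes tested. The libraries of the zones did not overlap for 22 of the 32 genes, 9 higher and 13 lower in the invasion zone. Of all genes tested 58.3% did not overlap, 28.3% higher and 30.0% lower. The median log2 fold change of the 32 was -0.22, beside -0.01 over all genes tested. Without FZD3, 4 of 31 were called with the block (12.9%). Of these 31, 9 were higher and 12 lower without overlap, and the median log2 fold change was -0.17.

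**Figure D1:**
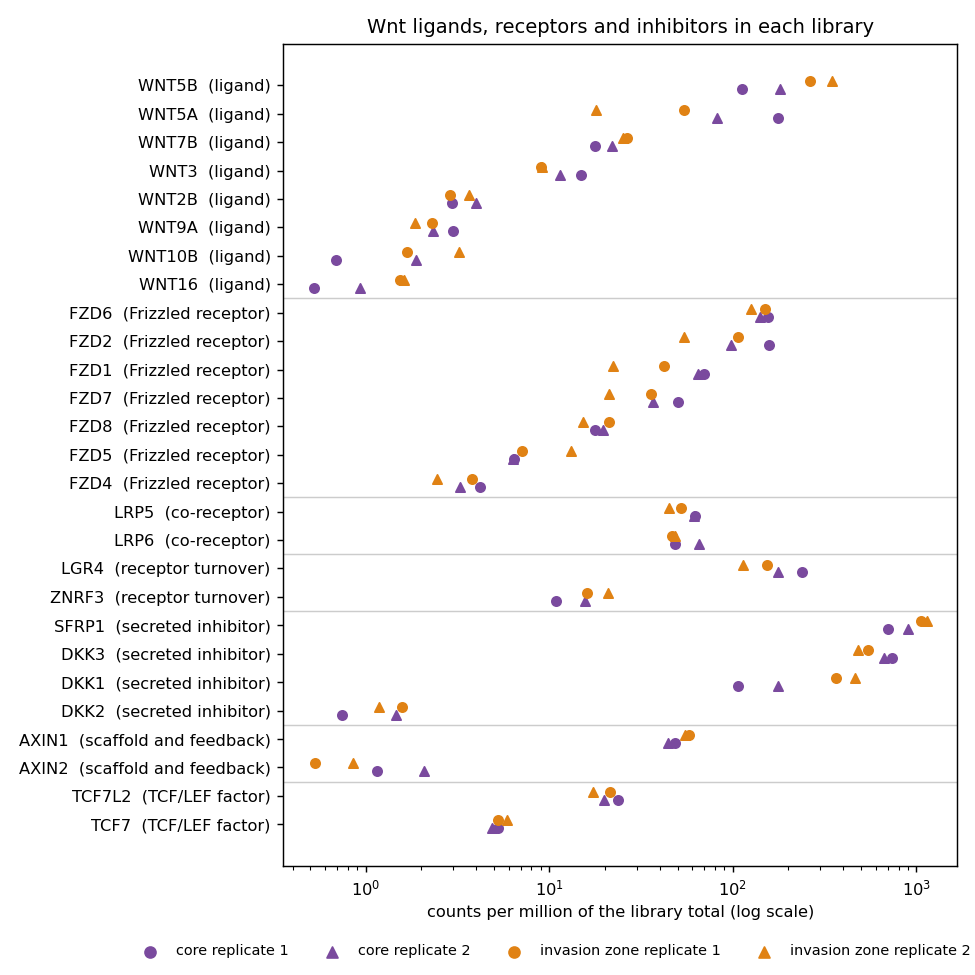
CPM of the library total on a log axis for the 27 genes with a mean of at least 1 CPM, grouped by role, with a point for each library (purple, core; orange, invasion zone; circles, replicate 1; triangles, replicate 2). WNT5B and DKK1 lie higher in both invasion zone libraries than in both core libraries, and WNT5A and FZD1 lie lower.

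The promoters of DKK1, WNT5A and WNT5B are shown here because DKK1 and WNT5A carried the largest changes in each direction among these genes and WNT5B, the paralog of WNT5A, went the opposite way. DKK1 is itself known as a target of β-catenin and TCF factors. Each stretch is the 250 bases before a transcription start listed by RefSeq on GRCh38.p14, written 5′ to 3′ on the strand of the gene, and capitals mark CTTTGA, the core of the TCF/LEF motif, on either strand.

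DKK1 (chr10:52314031-52314280, plus strand): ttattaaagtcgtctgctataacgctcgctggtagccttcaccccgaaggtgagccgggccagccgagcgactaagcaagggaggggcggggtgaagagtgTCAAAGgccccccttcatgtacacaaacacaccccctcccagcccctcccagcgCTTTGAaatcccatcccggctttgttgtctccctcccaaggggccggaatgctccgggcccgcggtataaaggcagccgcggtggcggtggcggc

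WNT5A (chr3:55481399-55481648, minus strand): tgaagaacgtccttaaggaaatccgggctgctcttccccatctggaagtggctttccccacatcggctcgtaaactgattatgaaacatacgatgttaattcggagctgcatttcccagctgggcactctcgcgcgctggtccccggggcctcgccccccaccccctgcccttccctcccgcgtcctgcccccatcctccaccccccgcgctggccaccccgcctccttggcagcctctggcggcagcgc

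WNT5B (chr12:1628981-1629230, plus strand): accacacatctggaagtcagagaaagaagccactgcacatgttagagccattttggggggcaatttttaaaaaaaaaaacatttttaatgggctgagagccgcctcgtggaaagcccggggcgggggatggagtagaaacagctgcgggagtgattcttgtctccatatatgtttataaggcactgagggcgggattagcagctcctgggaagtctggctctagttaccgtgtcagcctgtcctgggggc

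The DKK1 stretch held 2 matches, which began 95 and 149 bases before the start on the plus and minus strands. It lies over an exon of PRKG1-AS1 on the opposite strand. The WNT5A and WNT5B stretches held no CTTTGA and no ACGTG, the core of the hypoxia response element, and overlap no exon in GENCODE release 44, although both lie within the annotated spans of their genes. RefSeq lists another start for WNT5A and for WNT5B, and the 250 bases before these held neither motif. Promoters were listed for 35 of the 52 genes (42 starts). CTTTGA occurred in 1 of these 42 stretches, that of DKK1, and in 11.2% of the 35116 stretches of all genes, and ACGTG occurred in 5 of the 42 and in 18.5% of all. A match in such a stretch is a description of letters only.

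The ligands were dominated by the paralogs WNT5A and WNT5B, which went in opposite directions. WNT5B (ENSG00000111186, chromosome 12 of GRCh38, 1529891 to 1647212) had 112 and 181 CPM in the core and 264 and 349 CPM in the invasion zone. The invasion zone was above the core in every pairing of libraries, by 2.35-fold in replicate 1 and 1.92-fold in replicate 2. Its log2 fold change was 1.05 (standard error 0.27, adjusted p = 0.135 in edgeR) without the replicate term. With the block it was 1.08 (standard error 0.09, adjusted p = 8.43e-05), and WNT5B was called higher. WNT5A (ENSG00000114251, chromosome 3, 55465715 to 55490539) had 177 and 81.8 CPM in the core and 53.9 and 18.1 CPM in the invasion zone. Replicate 2 was the lower one in both zones, and within a replicate the core exceeded the invasion zone by 3.29-fold and 4.53-fold. The log2 fold change of WNT5A was -1.84 (standard error 0.61, adjusted p = 0.165 in edgeR) without the replicate term. It was -1.93 (standard error 0.12, adjusted p = 4.77e-05) with the block, and WNT5A was called lower. DESeq2 without the block called WNT5B (adjusted p = 0.0062) but not WNT5A (adjusted p = 0.157), and with it called both (adjusted p = 1.37e-16 and 1.21e-30).

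Single libraries weighed on these values. Without core replicate 1 the log2 fold change was -1.18 for WNT5A and 0.74 for WNT5B. Without core replicate 2 it was -2.30 and 1.43, and without invasion zone replicate 2 it was -1.27 and 0.85. Without invasion zone replicate 1 it was -2.87 and 1.24, and both genes were called without the replicate term (adjusted p = 0.00202 and 0.0136 in edgeR).

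Levels of different genes were compared per kilobase of exon (CPM per kb). The length covered all annotated exons of a gene, and these comparisons depend on that choice. On this scale the 19 ligands summed to 59.7 and 63.4 CPM per kb in the core and to 79.0 and 94.1 CPM per kb in the invasion zone. WNT5B made up 44.3% and 67.5% of that sum in the core and 78.7% and 87.3% in the invasion zone. WNT5A made up 41.5% and 18.0% in the core and 9.54% and 2.68% in the invasion zone. By CPM without the length, WNT5A exceeded WNT5B in core replicate 1 (177 against 112 CPM) but in no other library. The ratio of WNT5B to WNT5A on this scale was 1.07 and 3.74 in the core and 8.25 and 32.5 in the invasion zone. The replicates of a zone thus differed by more than 3-fold in this ratio, and the zones did not overlap. With 2 libraries against 2 the smallest p that an exact permutation test can give is 0.333, so no test of the shares was run.

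**Figure D2:**
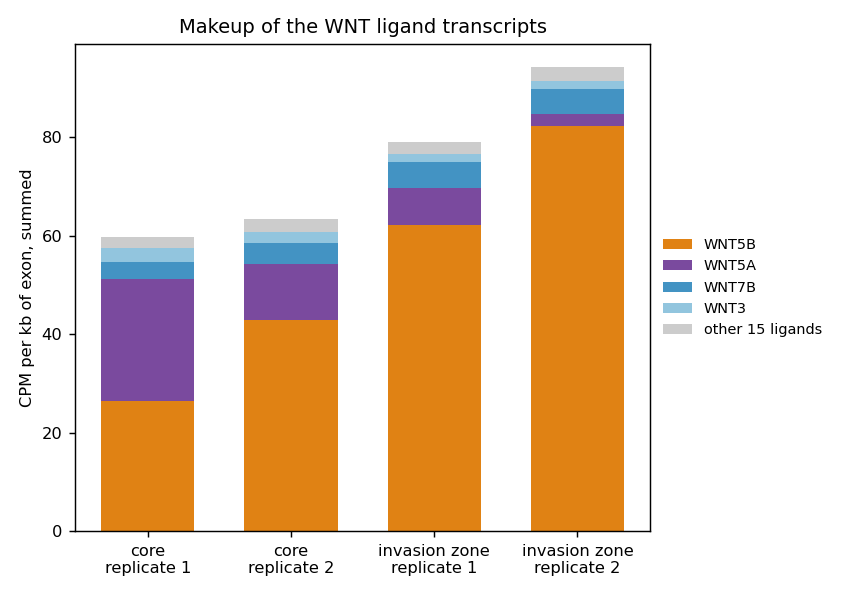
Summed level of the 19 WNT ligands in CPM per kb of exon (linear axis from 0) in each of the 4 libraries, stacked by gene. WNT5B takes 44.3% and 67.5% of the sum in the core and 78.7% and 87.3% in the invasion zone, and WNT5A shrinks from 41.5% and 18.0% to 9.54% and 2.68%.

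The other ligands were much lower. WNT7B, a ligand that can signal through β-catenin, had 17.7 and 22.0 CPM in the core and 26.6 and 25.1 CPM in the invasion zone, and its log2 fold change was 0.39 with the block (standard error 0.14, adjusted p = 0.0489 in edgeR). WNT3, also a β-catenin ligand, had 14.9 and 11.4 CPM in the core and 9.02 and 9.08 CPM in the invasion zone, with a log2 fold change of -0.56 with the block (standard error 0.18, adjusted p = 0.0333 in edgeR). Both passed the blocked test in edgeR below the 2-fold minimum but not the blocked test in DESeq2 (adjusted p = 0.164 and 0.16), and the zones did not overlap for either gene.

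WNT2B, WNT9A, WNT10B and WNT16 lay between 0.523 and 4.0 CPM in every library. WNT16 had 0.523 and 0.934 CPM in the core and 1.54 and 1.61 CPM in the invasion zone (log2 fold change 1.22, standard error 0.44, adjusted p = 0.0551 with the block in edgeR). WNT10B had 0.688 and 1.87 CPM in the core and 1.68 and 3.22 CPM in the invasion zone, so that its zones overlapped. The adjusted p of WNT10B was 0.0525 with the block in edgeR, and limma voom with the block called both WNT10B and WNT16 higher. For WNT2B 2665 of 12374 exonic bases lie over a gene on the opposite strand, ST7L, and the strand setting of the counting is not given in the sources used here. WNT10A and WNT11 had means under 1 CPM and were tested, with log2 fold changes of -0.76 and -1.36 and adjusted p of 0.355 and 0.056 in edgeR with the block. The core exceeded the invasion zone by 1.92-fold and 5.51-fold for WNT11, whose zones did not overlap and which limma voom with the block called lower. WNT1, WNT2, WNT3A, WNT7A, WNT8A and WNT9B had no count in any library. WNT4 had 12 counts over the 4 libraries, WNT6 had 3 and WNT8B had 2.

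Among the Frizzled receptors, FZD1 was the receptor called lower and FZD6 and FZD2 were the most abundant per length. FZD1 (ENSG00000157240, chromosome 7, 91264433 to 91271326) had 69.4 and 64.4 CPM in the core and 42.3 and 22.3 CPM in the invasion zone. Its core libraries were close together and both lay above the invasion zone libraries, by 1.64-fold in replicate 1 and 2.89-fold in replicate 2. The log2 fold change was -1.05 (standard error 0.32, adjusted p = 0.154 in edgeR) without the replicate term and -1.09 (standard error 0.17, adjusted p = 0.00118) with the block, and DESeq2 without the block also called it lower (adjusted p = 0.0196). In limma voom with the block its log2 fold change of -0.96 was under the 2-fold minimum, and FZD1 was not called. In edgeR it was -0.66 without invasion zone replicate 2 and -1.60 without invasion zone replicate 1.

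FZD2 had 157 and 98.0 CPM in the core and 107 and 54.1 CPM in the invasion zone. The zones overlapped although the invasion zone was the lower one within each replicate. FZD7 had 50.2 and 37.0 CPM in the core and 35.9 and 21.0 CPM in the invasion zone, without overlap. The log2 fold changes of FZD2 and FZD7 were -0.71 and -0.64 with the block (adjusted p = 0.000606 and 0.00277 in edgeR), below the 2-fold minimum. Without the replicate term they were -0.67 and -0.62 (adjusted p = 0.35 and 0.285 in edgeR).

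FZD6 had 155 and 140 CPM in the core and 149 and 126 CPM in the invasion zone. FZD8 had 17.8 and 19.6 CPM in the core and 21.2 and 15.2 CPM in the invasion zone. Neither difference was larger than the spread between replicates (log2 fold change -0.11 and -0.04, adjusted p = 0.709 and 0.937 in edgeR). FZD5 had 6.44 and 6.34 CPM in the core and 7.13 and 13.1 CPM in the invasion zone, so its higher value came mostly from invasion zone replicate 2 (log2 fold change 0.63, adjusted p = 0.317 in edgeR). FZD4 lay between 2.46 and 4.21 CPM, with 1399 of its 7387 exonic bases over PRSS23 on the opposite strand. FZD3 and FZD9 had means of 0.484 and 0.699 CPM, and FZD10 had no count. The summed Frizzled level was 107 and 84.3 CPM per kb in the core and 86.0 and 59.7 CPM per kb in the invasion zone, where the zones overlapped. FZD6 made up 35.7% and 40.9% of it in the core and 42.6% and 52.1% in the invasion zone.

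Of the co-receptors, LRP5 and LRP6 were present and the ROR kinases were not detectable at this depth. LRP5 had 62.4 and 61.7 CPM in the core and 51.9 and 45.0 CPM in the invasion zone, with a log2 fold change of -0.37 that passed with the block below the 2-fold minimum (standard error 0.10, adjusted p = 0.017 in edgeR). It did not pass the blocked test in DESeq2 (adjusted p = 0.071). LRP6 had 48.7 and 65.8 CPM in the core and 46.4 and 48.6 CPM in the invasion zone (log2 fold change -0.25 with the block, adjusted p = 0.106 in edgeR). ROR1 had 2 counts in 1 library, and ROR2 had none. RYK and PTK7, further receptors for WNT5A that were added after their values were seen, lay between 103 and 119 CPM and between 86.1 and 243 CPM. RYK had a log2 fold change of -0.21 and PTK7 of -0.86 with the block (adjusted p = 0.0696 and 0.00027 in edgeR), neither at 2-fold.

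R-spondin receptors of the LGR family and the ubiquitin ligases RNF43 and ZNRF3 set how much Frizzled stays at the cell surface. LGR4 had 237 and 176 CPM in the core and 154 and 114 CPM in the invasion zone, 1.54-fold higher in the core in each replicate. Its log2 fold change was -0.64 (standard error 0.07, adjusted p = 0.000318 with the block in edgeR), below the 2-fold minimum. ZNRF3 had 10.9 and 15.8 CPM in the core and 16.1 and 20.8 CPM in the invasion zone, and its log2 fold change was 0.48 with the block (standard error 0.14, adjusted p = 0.0267 in edgeR). The blocked test in DESeq2 did not pass ZNRF3 (adjusted p = 0.118). The zones did not overlap for LGR4 or ZNRF3. LGR5 had 2 counts and RNF43 3 counts over the 4 libraries.

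By the mean over the 4 libraries, the secreted inhibitors SFRP1 and DKK1 had the highest levels per length of the 52 genes (201 and 125 CPM per kb). By CPM without the length, the mean of DKK3 (608 CPM) was above that of DKK1 (278 CPM). In core replicate 1 DKK3, with 61.6 CPM per kb, lay above DKK1, with 47.9 CPM per kb. DKK1, which removes LRP5 and LRP6 from Wnt receptor complexes, lies on chromosome 10 of GRCh38 (52314281 to 52318042, ENSG00000107984), and its promoter held the only CTTTGA matches among those listed for the 52 genes. DKK1 had 106 and 177 CPM in the core and 367 and 463 CPM in the invasion zone. The lowest invasion zone library was far above the highest core library, and the invasion zone exceeded the core by 3.45-fold in replicate 1 and 2.62-fold in replicate 2. The log2 fold change was 1.54 (standard error 0.27, adjusted p = 0.128 in edgeR) without the replicate term. It was 1.58 (standard error 0.10, adjusted p = 4.9e-05) with the block, and DESeq2 without the block called it higher as well (adjusted p = 1.5e-05). With a library left out it ranged from 1.22 without core replicate 1 to 1.94 without core replicate 2, and DKK1 was called in edgeR without the replicate term in each of these fits except the one without core replicate 1 (adjusted p = 0.0693). PRKG1-AS1, on the opposite strand, covers 227 of its 2221 exonic bases.

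SFRP1, which binds Wnt ligands outside the cell, had 697 and 905 CPM in the core and 1058 and 1141 CPM in the invasion zone. DKK3, a divergent family member that is not known as an LRP5 and LRP6 blocker, had 736 and 669 CPM in the core and 544 and 482 CPM in the invasion zone. Neither gene overlapped between the zones. Their log2 fold changes were 0.46 and -0.47 with the block (adjusted p = 0.00255 and 0.00105 in edgeR), below the 2-fold minimum. For DKK3 5681 of 11958 exonic bases lie over USP47 on the opposite strand, which leaves its level uncertain. DKK2 lay between 0.743 and 1.57 CPM, with zones that overlapped. DKK4 and SFRP5 had 4 counts each, SFRP4 had 1, and SFRP2 had none. The 8 inhibitors summed to 257 and 327 CPM per kb in the core and to 435 and 490 CPM per kb in the invasion zone, and the share of DKK1 in that sum was 18.6% and 24.3% in the core and 38.0% and 42.5% in the invasion zone.

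**Figure D3:**
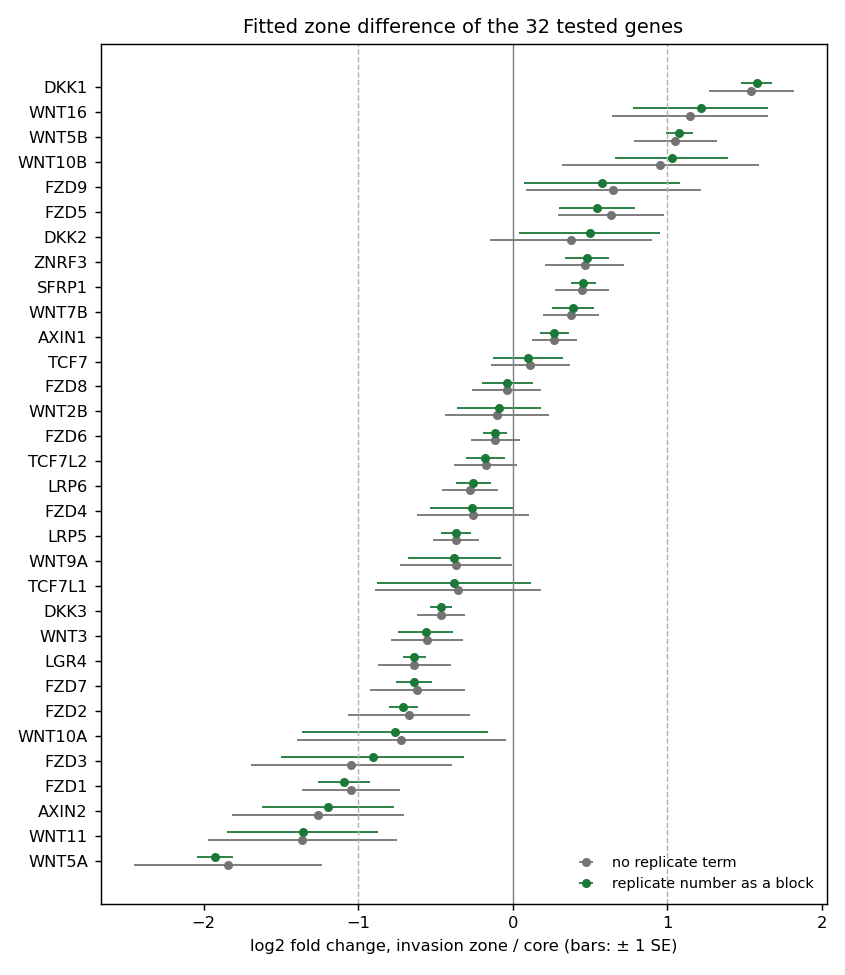
Log2 fold change, invasion zone relative to core, for the 32 tested genes (points) with 1 standard error to each side (bars), fitted without a replicate term (grey) and with the replicate number as a block (green), with dashed lines at 2-fold. The fold changes of the fits lie close together, while the bars are shorter with the block for all 32 genes. Those of DKK1, WNT5B, WNT5A and FZD1 are 0.10, 0.09, 0.12 and 0.17 against 0.27, 0.27, 0.61 and 0.32. That of FZD2, which was not called, is 0.10 against 0.39.

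Inside the cell, the feedback genes were at low counts. AXIN2, a scaffold of the β-catenin destruction complex and a standard readout of β-catenin signaling, had 42 and 31 counts (1.16 and 2.07 CPM) in the core and 20 and 10 counts (0.532 and 0.848 CPM) in the invasion zone. The zones did not overlap, and the ratio of core to invasion zone over the summed counts was 2.34 (exact 95% interval 1.51 to 3.71, counting error only). Its log2 fold change did not pass in edgeR with the block (-1.20, standard error 0.42, adjusted p = 0.0535 in edgeR) or without it (adjusted p = 0.237). In limma voom with the block AXIN2 was called lower (log2 fold change -1.17, adjusted p = 0.0439). A same-strand gene in the annotation, ENSG00000266076, covers 1316 of its 5197 exonic bases. NKD1, which binds Dishevelled, had 14 and 7 counts in the core and 6 and 0 in the invasion zone, a ratio of 3.37 (exact 95% interval 1.31 to 10.2). It was too low to be tested. AXIN1, the constitutive scaffold, had 48.6 and 44.4 CPM in the core and 57.8 and 55.1 CPM in the invasion zone, with a log2 fold change of 0.27 (adjusted p = 0.0529 with the block in edgeR).

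No TCF/LEF factor passed the test with or without the block. TCF7L2 had 23.6 and 20.0 CPM in the core and 21.4 and 17.4 CPM in the invasion zone. TCF7 had 5.28 and 4.87 CPM in the core and 5.27 and 5.85 CPM in the invasion zone. Their log2 fold changes were -0.17 and 0.11 (adjusted p = 0.644 and 0.826 in edgeR), and the zones overlapped for both. TCF7L1 lay between 0.509 and 0.825 CPM, and LEF1 had 2 counts, both in invasion zone replicate 2.

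A further list of 65 Wnt pathway genes, which covers ligand secretion, other inhibitors, R-spondins, Dishevelled, the destruction complex, planar polarity, nuclear cofactors and targets, was described in the same way. Of its members 45 were tested. None was called without the replicate term, and with the block 5 were called lower and 0 higher, 11.1% of those tested beside 10.5% of all genes. RSPO3, FRZB and JUP passed the low-count filter through the core libraries alone, and without them 4 of 42 were called (9.52%). The zones did not overlap for 29 of the 45, 11 higher and 18 lower, beside 28.3% higher and 30.0% lower over all genes tested. Without those 3 genes 11 of 42 were higher and 15 lower in this way. The median log2 fold change was -0.24, beside -0.01 over all genes tested, and -0.15 without those 3 genes.

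KREMEN1, a DKK1 receptor, had 28.2 and 21.5 CPM in the core and 11.5 and 6.36 CPM in the invasion zone (log2 fold change -1.49, standard error 0.16, adjusted p = 0.000219 with the block in edgeR). CELSR2, an atypical cadherin of planar polarity, had 5.53 and 3.07 CPM in the core and 1.22 and 0.254 CPM in the invasion zone (log2 fold change -2.48, standard error 0.37, adjusted p = 0.00106). CELSR2 had 3 counts in invasion zone replicate 2. Without a replicate term its log2 fold change was -2.38, or -4.09 without invasion zone replicate 1 and -1.83 without invasion zone replicate 2. PRICKLE2, of the same polarity module, had 10.3 and 8.81 CPM in the core and 5.16 and 3.22 CPM in the invasion zone (log2 fold change -1.18, standard error 0.22, adjusted p = 0.003). Genes on the opposite strand cover 3723 of the 14738 exonic bases of PRICKLE2. KREMEN1, CELSR2 and PRICKLE2 were lower in the invasion zone within each replicate, with no overlap of the zones. KREMEN2, also on the list, went the other way without overlap. It had 0.55 and 0.534 CPM in the core and 0.718 and 1.36 CPM in the invasion zone. KREMEN2 did not pass with the block (adjusted p = 0.272 in edgeR), and 357 of its 2339 exonic bases lie over PKMYT1 on the opposite strand.

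DACT1, a Dishevelled-binding antagonist, had 11.4 and 9.88 CPM in the core and 5.43 and 4.24 CPM in the invasion zone (log2 fold change -1.14, adjusted p = 0.00201 with the block in edgeR). RSPO3, an R-spondin that potentiates Wnt signaling through LGR receptors, had 33 counts over the core and 6 over the invasion zone, a ratio of 5.29 (exact 95% interval 2.19 to 15.4). It was called lower with the block (adjusted p = 0.0199 in edgeR), having passed the low-count filter through the core libraries alone. Without the block the edgeR quasi-likelihood test did not call RSPO3, either with the filter (adjusted p = 0.144) or without it. The block was not fitted without the filter, and DESeq2 gave RSPO3 no adjusted p. A gene on the opposite strand covers 777 of the 4957 exonic bases of RSPO3. FRZB, a relative of the SFRP genes under another symbol, and NOTUM, a feedback inhibitor that removes the lipid from Wnt proteins, were named after their values were seen. FRZB had 45 counts over the core and 16 over the invasion zone, a ratio of 2.70 (exact 95% interval 1.50 to 5.13), and did not pass with the block (adjusted p = 0.0569 in edgeR). NOTUM had 23 and 5 counts, a ratio of 4.42 (exact 95% interval 1.65 to 14.9), and was too low to be tested. These intervals cover counting error only.

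The transducers CTNNB1 and GSK3B did not pass the test with or without the block. CTNNB1, which encodes β-catenin, had 194 and 146 CPM in the core and 205 and 139 CPM in the invasion zone, with a log2 fold change of 0.01 whose sign changed with the scaling (standard error 0.25, adjusted p = 0.992 in edgeR). GSK3B, the kinase of the destruction complex, had 127 and 136 CPM in the core and 142 and 145 CPM in the invasion zone (log2 fold change 0.11, adjusted p = 0.627 in edgeR). WLS, which carries Wnt proteins to the cell surface, had 129 and 120 CPM in the core and 106 and 84.7 CPM in the invasion zone, with a log2 fold change of -0.40 with the block (adjusted p = 0.00716 in edgeR). PORCN, the acyltransferase that lipidates Wnt proteins, lay between 6.62 and 10.3 CPM with overlapping zones. Of the targets on the list, MYC had 80.9 and 105 CPM in the core and 158 and 183 CPM in the invasion zone, and CCND1 had 329 and 371 CPM in the core and 467 and 509 CPM in the invasion zone. Both were picked from the list after their values were seen and passed with the block below the 2-fold minimum (log2 fold change 0.87 and 0.47, adjusted p = 0.000132 and 0.00102 in edgeR). Both are induced by growth signals other than Wnt as well, and the proliferation markers, whose part was not tested, were higher in the same libraries. TNFRSF19, another target on the list, had 4.76 and 11.9 CPM in the core and 5.37 and 8.82 CPM in the invasion zone. Its zones overlapped, and SP5, also a target, had no count in any library.

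**Figure D4:**
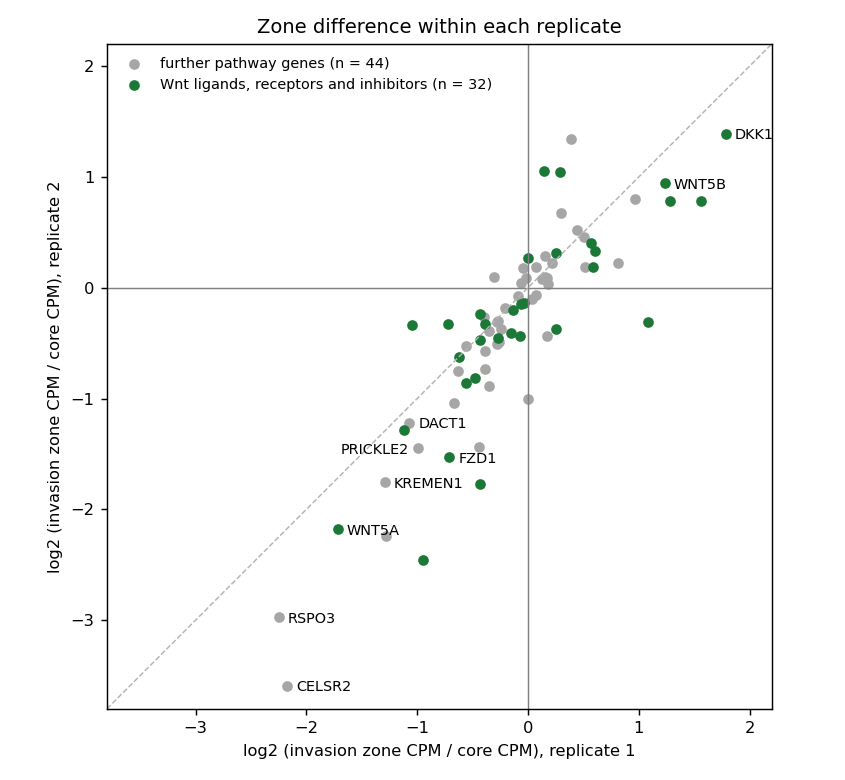
Log2 ratio of invasion zone to core CPM in replicate 1 (x axis) and replicate 2 (y axis) for the 32 tested genes (green) and 44 of the 45 further pathway genes tested (grey, without JUP, which had no count in a library), with names for the 9 genes called with the block. DKK1 and WNT5B lie in the upper right and WNT5A in the lower left, and the dashed line marks equal differences in both replicates.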

How the data were processed

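The authors deposited raw counts per gene. Per the methods and the labels, ribosomal reads were removed with Bowtie, reads were aligned to hg38 with STAR and uniquely mapped reads were counted per gene with HTSeq-count. The sources used here give no tool version, annotation release or strand setting. Of 56306 rows, 2 repeated rows without counts were left out. CPM were taken over the library total. In R 4.3.3, edgeR 4.0.16 (TMM factors from 0.985 to 1.01) tested 15529 genes that reached 10 counts, scaled to the median library size, in 2 or more libraries and 15 in total. The standard error is the fold change divided by the root of the F statistic. DESeq2 1.42.0 and limma 3.58.1 were alternatives, with each library left out, other scalings, filters and thinning. The methods take each core and then its corresponding invasion zone, and same-numbered libraries were therefore treated as pairs, although no source says so of the number. Their deviations from the zone means correlated at 0.58 across genes (2 pairs). Libraries of a zone were not duplicates (chi-square per degree of freedom 19.2 and 20.7). Exon lengths and overlaps came from GENCODE release 44, which holds 98.1% of the identifiers, and promoters from RefSeq. Of the Wnt genes, those with a mean of at least 1 CPM or called with or without the block were named, and of the further list those called, with CTNNB1, GSK3B, WLS and PORCN. Other genes were named after their values were seen. The genes and lists were chosen with earlier results of these data known, and 1 of 66 names on the further list has no row in the table.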

Additional observations from a re-analysis of the deposited data

How the results depend on the processing

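Without a replicate term edgeR called no gene, and this held under RLE scaling, upper-quartile scaling, limma voom, a filter of at least 10 counts in every library, thinning to the smallest library and no fold minimum. Other settings called genes, given here as higher and lower over all genes, then among the tested Wnt genes, then lower on the further list. The counts were 354 and 548, 2 and 1, then 4 with DESeq2, 427 and 731, 2 and 2, then 4 with DESeq2 and the replicate block, and 356 and 704, 2 and 2, then 5 with the likelihood ratio test. They were 427 and 846, 2 and 2, then 4 without the low-count filter and 454 and 909, 2 and 2, then 5 at an unadjusted p. Pairing by the replicate block gave 530 and 1097, 2 and 2, then 5 in edgeR and 575 and 1088, 4 and 3, then 7 in limma voom, where WNT10B, WNT16, AXIN2 and WNT11 were called and FZD1 (log2 fold change -0.96) fell short of 2-fold. The block without a fold minimum, added after seeing the data, gave 3010 and 3009, 5 and 8, then 16, and 4 higher on the further list. With a library left out, 8 to 542 genes were higher and 100 to 1133 lower, with 0 to 2 and 0 to 4 among the Wnt genes and 0 to 7 lower on the further list. The lone library left in a zone is then assumed to vary like the other zone. The most calls came without invasion zone replicate 1, where FZD2 and FZD7 were also called, and none of the Wnt genes was called without core replicate 1. The cause of these differences was not tested.

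Of 36 named genes 7, none of them called, changed sign under some setting. The log2 fold change of CTNNB1 was -0.0287 with upper-quartile scaling, -0.0035 in limma voom, -0.0186 with at least 10 counts in every library and -0.0042 with the block. That of FZD8 was 0.0187 and 0.0528 in limma voom without and with the block. With a library left out, CTNNB1 ranged from -0.31 to 0.26, FZD8 from -0.31 to 0.18, WNT2B from -0.32 to 0.12, PORCN from -0.43 to 0.20, DKK2 from -0.0747 to 0.89, FZD6 from -0.24 to 0.0095 and FZD4 from -0.63 to 0.0010. All 7 had a mean of at least 1 CPM. With 2 libraries a zone, and 1 shallow library in each, genes under about 1 CPM were measured coarsely. Small fold changes of such genes could not be told from counting error.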
